A study of Mus musculus with 4 samples.

Results

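The oxygen-sensing genes described here are the HIF alpha subunits Hif1a and Epas1, the prolyl hydroxylases Egln1, Egln2 and Egln3, the asparaginyl hydroxylase Hif1an, the ubiquitin ligase component Vhl and the hypoxia targets Vegfa, Bnip3 and Ankrd37. Their members are the probe sets, the oligonucleotide groups that each give 1 signal per array, which the platform annotation assigns to 1 of these genes alone. All 10 genes were represented, by 20 of the 45037 non-control probe sets, out of 18193 genes with a probe set of their own. The signals came from 4 Affymetrix mouse arrays, hybridised with RNA from J1 mouse embryonic stem cells of the RNAi line Chd4i-1. This line carries a Tet-on construct that makes RNAi against Chd4, the ATPase of the NuRD chromatin remodelling complex, when doxycycline is given. The Chd4 RNAi group holds 2 arrays from cells kept for 3 days in doxycycline at 5 ng/ml. The control group, also 2 arrays, is the same line without the drug. All cells were grown on gelatin with serum and leukaemia inhibitory factor. The arrays of a group are named biological duplicates in the series text. Chd4i-1 is a single RNAi line, and doxycycline, RNAi and loss of Chd4 cannot be told apart in this design.

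In cells with enough oxygen, the Egln enzymes use oxygen, iron and oxoglutarate to hydroxylate prolines of the HIF alpha subunits, and the Vhl protein then binds them and directs their destruction. Hif1an hydroxylates an asparagine that blocks the coactivators Ep300 and Crebbp. When oxygen falls, the alpha subunits persist, pair with Arnt and switch on genes of glucose uptake, glycolysis, vessel growth and mitochondrial turnover. Egln1 and Egln3 are themselves known HIF targets, which makes a feedback loop, while Egln2 is generally not induced by hypoxia. Much of this control acts on protein stability, which expression arrays do not measure.

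Signals of Chd4 itself were lower after RNAi for all 3 of its probe sets, which stood at 48.5% to 65.0% of control (adjusted p = 0.000244 to 0.00638). All arrays were on 1 scale, with trimmed mean signals of 496.5 to 497.2, and Pearson's r between replicates was 0.984 and 0.982 over the 27022 probe sets tested, against 0.968 to 0.969 between groups. Those correlations are across probe sets, which are not independent replicates. Markers of the labelled cells and of other cell types were read at the brightest probe set of each gene, and those named here were picked after their values were seen. All 10 embryonic stem cell markers lay above the array median of 76.0, with summed signals of 121584 and 124736 in the controls and 127415 and 126208 on the RNAi arrays. Within that list 7 of 14 tested probe sets were called, with Fbxo15, Dppa5a and Utf1 higher (169%, 114% and 124% of control) and Klf4 and Esrrb lower (84.1% and 81.8%). The summed trophectoderm signal went from 2811 and 2766 to 5156 and 5497, with Tfap2c at 262% and Krt18 at 222% of control. Eomes went the other way without passing, from 207 and 178 to 109 and 121 (59.7% of control, adjusted p = 0.0502). Krt8 (110%) and Hand1 (93.0%) did not pass either. Of the 9 genes on the array, 4, Cdx2 and Elf5 among them, had means below the array median in both groups. The fibroblast sum went from 3628 and 3597 to 3025 and 2518, with Vim lower (58.1% of control) and Thy1 and Fbln2 higher (306% and 249%), and 6 of 10 genes, Col1a1, Col3a1 and Dcn among them, lay below the median in both groups. The primitive endoderm sum was 998 and 1053 in the controls and 924 and 916 after RNAi, with Lama1 alone called (lower) and 6 of 10 genes below the median. The part of these marker changes in the results that follow was not tested. Detection calls were not used here. Of the probe sets tested, 14.2% changed at an adjusted p under 0.05 in limma, 7.46% upwards and 6.77% downwards. In bulk RNA, fewer cells expressing a gene and less RNA per cell cannot be told apart.

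The prolyl hydroxylase genes Egln1 and Egln3 fell, whereas neither HIF alpha subunit, nor Egln2, Hif1an, Vhl or any of the target genes Vegfa, Bnip3 and Ankrd37, passed the test. Of the 20 probe sets 18 were bright enough to be tested, and all 10 genes had at least 1 of these. A total of 4 tested probe sets was lower, both of Egln1 and both of Egln3, and 0 were higher in limma, where 6 of the 18 had an unadjusted p under 0.05, against 28.3% of all tested probe sets. The 4 of 18 stand beside 6.77% lower among all tested probe sets, but these 4 calls came from only 2 genes. With the brightest probe set of each gene alone, 2 of 10 members were called, both lower. Over all, 20.5% of 12615 genes were called in that fit, 1480 higher and 1112 lower. The genes were chosen with earlier results of these data known, so these shares are descriptive only. The median log2 difference was -0.072 over the members and -0.012 over all tested probe sets. All 4 calls were lost in a fit whose variance model lacked the intensity trend, and there limma called 0 of the 27022 probe sets (lowest adjusted p = 0.0594, 5828 at an unadjusted p under 0.05, among them 5 of the members). With that model and 1 probe set per gene, 421 of 12615 genes were called and 0 of the members, with 3 at an unadjusted p under 0.05.

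**Figure D1:**
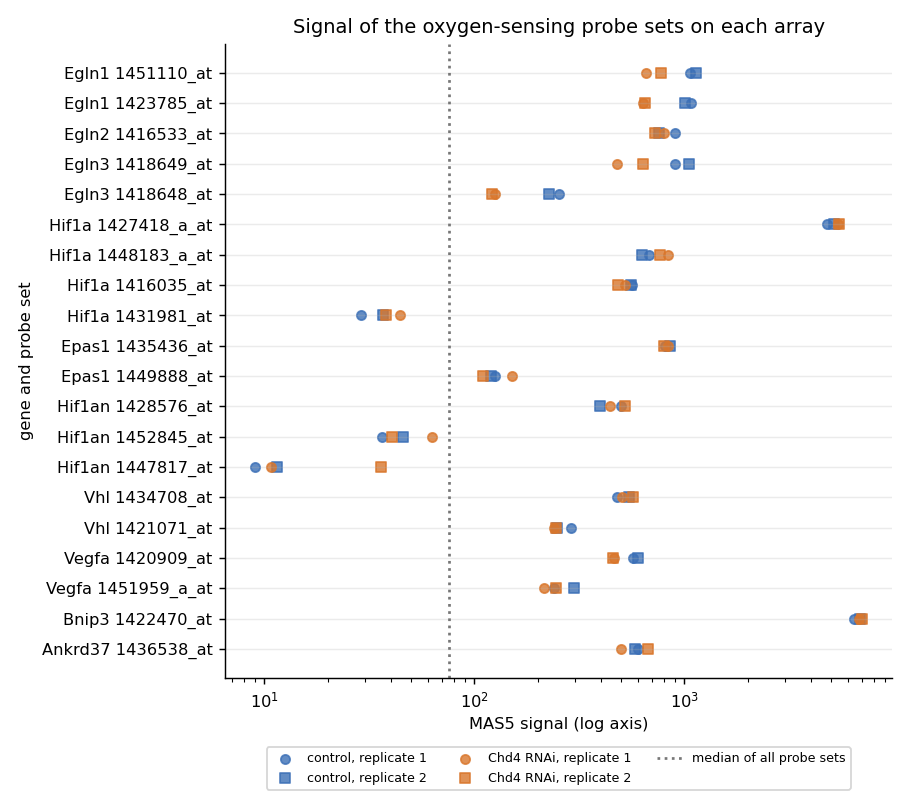
MAS5 signal (horizontal, log axis) of each of the 20 probe sets on each array, with 1 point per array, blue for control and orange for Chd4 RNAi. Both Egln1 and both Egln3 probe sets have separate groups with the RNAi arrays on the left, while most other points of a row lie close together.

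The bases before the start sites of the 3 Egln genes and of 2 target genes are shown because these genes are described as HIF-responsive or are set against those that are. HIF binds a short core that reads ACGTG or GCGTG. Each sequence is the 250 bases before an annotated start, from RefSeq on GRCm38.p6, 5′ to 3′ on the strand of the gene, with matches to either core on either strand in capitals. The windows are chr8:124949255-124949504 (minus strand) for Egln1, chr12:54203875-54204124 (minus) for Egln3, chr7:27166803-27167052 (minus, the upstream one of its annotated windows) for Egln2, chr7:138909507-138909756 (minus) for Bnip3 and chr8:45999851-46000100 (minus) for Ankrd37.
Egln1: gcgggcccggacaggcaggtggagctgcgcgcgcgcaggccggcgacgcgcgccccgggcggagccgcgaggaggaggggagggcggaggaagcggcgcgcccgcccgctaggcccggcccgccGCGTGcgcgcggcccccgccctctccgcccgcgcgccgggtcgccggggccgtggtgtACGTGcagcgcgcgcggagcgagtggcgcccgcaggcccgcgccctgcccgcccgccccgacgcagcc
Egln3: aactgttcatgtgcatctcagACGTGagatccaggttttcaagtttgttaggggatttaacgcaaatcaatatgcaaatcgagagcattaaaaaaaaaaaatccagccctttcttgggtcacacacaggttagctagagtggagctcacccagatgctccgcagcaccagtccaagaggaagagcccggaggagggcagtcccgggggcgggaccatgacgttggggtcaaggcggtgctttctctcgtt
Egln2: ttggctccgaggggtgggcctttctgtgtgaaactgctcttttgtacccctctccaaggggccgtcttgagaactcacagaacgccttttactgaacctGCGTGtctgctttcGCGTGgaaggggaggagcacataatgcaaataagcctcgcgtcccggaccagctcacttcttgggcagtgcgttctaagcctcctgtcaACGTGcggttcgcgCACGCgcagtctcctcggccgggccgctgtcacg
Bnip3: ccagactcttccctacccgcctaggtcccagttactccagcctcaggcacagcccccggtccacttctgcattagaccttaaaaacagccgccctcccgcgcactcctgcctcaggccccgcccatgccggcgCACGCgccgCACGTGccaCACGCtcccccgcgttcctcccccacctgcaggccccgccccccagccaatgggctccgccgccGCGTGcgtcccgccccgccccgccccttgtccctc
Ankrd37: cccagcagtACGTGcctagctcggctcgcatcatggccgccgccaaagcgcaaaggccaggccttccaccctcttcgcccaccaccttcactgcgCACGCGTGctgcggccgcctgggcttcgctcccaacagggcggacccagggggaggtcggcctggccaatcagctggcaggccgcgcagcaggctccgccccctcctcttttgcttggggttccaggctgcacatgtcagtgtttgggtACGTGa

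The Egln1 window held 1 ACGTG, 68 to 64 bases before the start, and 1 GCGTG. The Egln3 window held 1 ACGTG, 229 to 225 bases before the start, and 0 GCGTG. Egln2, which did not pass the test, held 1 ACGTG and 3 GCGTG, Bnip3 held 2 and 3, and Ankrd37 held 2 and 2. In Bnip3 both ACGTG matches are the same palindrome read on the 2 strands, and in Ankrd37 the 2 GCGTG matches overlap on opposite strands. Of 32851 annotated windows of this length, 16.6% held ACGTG, 28.2% held GCGTG and 38.6% held either. Among the members 9 of 10 genes had a window, 11 windows in all, and 8 of these 11 windows, from 7 genes, had at least 1 match to either core. For Vegfa the upstream window held 0 matches, and only its downstream window counts here. G and C made up 48.0% to 86.0% of the bases in the member windows. The shares over all windows were not matched for this, so they do not show whether members carry more matches than similar windows. A match describes letters, not a bound site, and these arrays measured no binding. So genes that fell and genes that did not pass both carry the core in this stretch.

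Egln1, which encodes the main oxygen sensor among the prolyl hydroxylases, fell to 61.9% and 65.2% of control at its 2 probe sets. Probe set 1423785_at read 1069 and 1008 without doxycycline and 635 and 651 with it. These groups were well apart, and the arrays of each lay within a narrow span. The log2 difference was -0.69 ± 0.098 SE (n = 2 per group, adjusted p = 0.000951). Probe set 1451110_at read 1058 and 1131 without doxycycline and 658 and 772 with it, again without overlap (log2 difference -0.62 ± 0.11 SE, adjusted p = 0.00321). The annotation gives the same source sequence for both, so they are repeated readings of 1 transcript and not independent evidence. Their ratio to each other within an array went from 1.01 and 0.892 without RNAi to 0.966 and 0.843 with it, and these ranges overlapped. With each array left out in turn the log2 difference stayed between -0.73 and -0.65 at the first and between -0.73 and -0.50 at the second, with adjusted p values of at most 0.00601 and 0.0184.

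Egln3, a prolyl hydroxylase known for strong induction by HIF, fell to 51.3% and 56.6% of control. Probe set 1418649_at read 902 and 1049 without doxycycline and 479 and 634 with it. Both RNAi values lay below both controls, with more spread between the RNAi arrays than for Egln1 (log2 difference -0.82 ± 0.14 SE, adjusted p = 0.00286). The dimmer probe set 1418648_at read 253 and 227 without doxycycline and 125 and 121 with it (log2 difference -0.96 ± 0.21 SE, adjusted p = 0.00980). Its groups did not overlap either, but with control replicate 1 left out it no longer passed (-0.89, adjusted p = 0.0763). These probe sets also share a source sequence. Among all probe sets tested, 2.06% had a log2 difference at or below that of 1418648_at and 3.23% at or below that of 1418649_at. For the Egln1 probe sets these shares were 5.15% and 6.64%.

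Egln2, the remaining prolyl hydroxylase of the family, read 900 and 757 without doxycycline and 802 and 721 with it at its probe set 1416533_at. The groups overlapped, and the change of -0.12 ± 0.12 SE (log2) did not pass at an adjusted p of 0.561. Its 95% interval, from -0.37 to 0.13, lies above the differences of all 4 Egln1 and Egln3 probe sets. Within each array the ratio of the Egln2 signal to that of Egln1 at 1423785_at went from 0.842 and 0.751 without RNAi to 1.26 and 1.11 with it. Against Egln3 at 1418649_at it went from 0.998 and 0.722 without RNAi to 1.67 and 1.14 with it. The ratio was higher on both RNAi arrays for each of the 4 pairings of Egln2 with an Egln1 or Egln3 probe set, by 1.41-fold to 1.80-fold. An exact two-sided permutation test over the arrays gave p = 0.333 for each of these pairings, which is the smallest that 2 against 2 arrays allow. All pairings use the same Egln2 probe set, so they are not independent of each other. On these arrays Egln2 moved less than Egln1 and Egln3. The permutation test could not pass in so small a design and cannot decide whether that difference holds beyond these arrays.

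**Figure D2:**
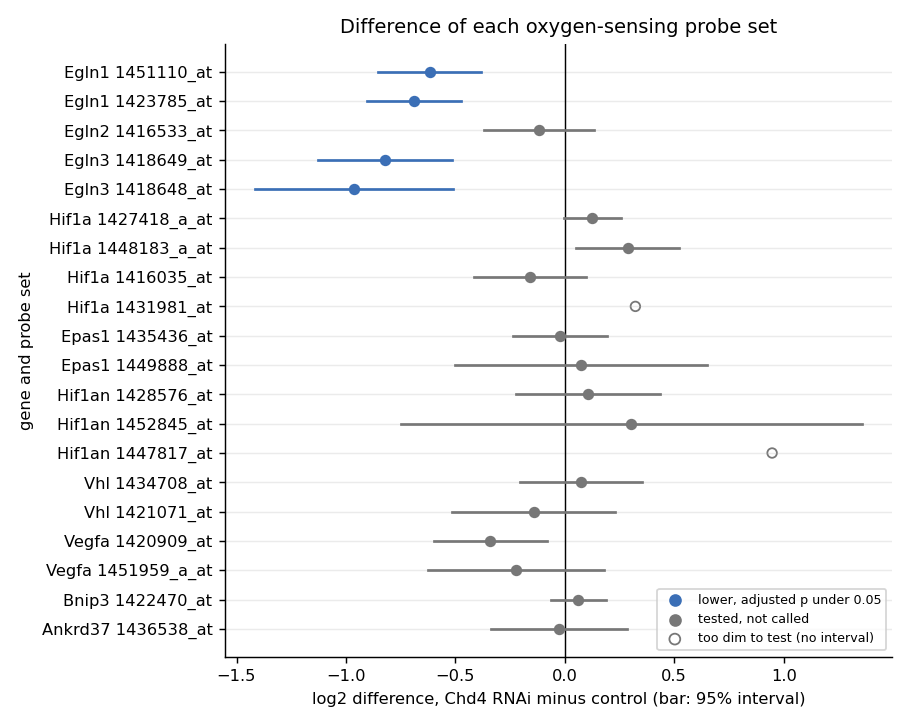
Log2 difference of each probe set, Chd4 RNAi minus control (horizontal), with its 95% interval from the fit as a bar. The 4 Egln1 and Egln3 probe sets, in blue, lie between -0.96 and -0.62, and the open circles are the 2 probe sets too dim to be tested.

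Hif1a, the alpha subunit found in most cells, gave probe sets that did not move in 1 direction. The brightest, 1427418_a_at, read 4791 and 5147 without doxycycline and 5390 and 5452 with it. Its groups were apart by a small step (log2 difference 0.13 ± 0.060 SE, adjusted p = 0.193). At 1448183_a_at the control arrays read 678 and 628 and the RNAi arrays 832 and 761, higher on both RNAi arrays (0.29 ± 0.11 SE, unadjusted p = 0.0209, adjusted p = 0.101). At 1416035_at the control arrays read 565 and 558 and the RNAi arrays 522 and 484, lower on both (-0.16 ± 0.12 SE, adjusted p = 0.420). None of the 3 passed, although the groups did not overlap at any of them. Non-overlap alone held for 55.9% of all tested probe sets. The ratio of 1448183_a_at to 1416035_at within an array went from 1.20 and 1.12 without RNAi to 1.59 and 1.57 with it. That ratio was 1.36-fold higher after RNAi, and the exact permutation p of 0.333 is again the smallest possible. The fourth probe set, 1431981_at, with signals of 28.9 to 44.1, was too dim to be tested. The suffix a marks probe sets that match several transcripts of 1 gene, so the Hif1a probe sets need not read the same transcripts.

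Epas1, which encodes the HIF alpha subunit typical of endothelial and some other cells, did not pass at either probe set. At 1435436_at the control arrays read 810 and 855 and the RNAi arrays 835 and 803. These groups overlapped, at -0.023 ± 0.098 SE on the log2 scale (95% interval -0.24 to 0.19, adjusted p = 0.909). At the dimmer 1449888_at the control arrays read 125 and 119 and the RNAi arrays 151 and 109, with both control values between the RNAi values. The difference there was 0.076 ± 0.26 SE, and its interval from -0.50 to 0.65 leaves a wide range. For the brighter probe set, a fall of the size seen for Egln1 lies outside the interval.

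Hif1an and Vhl, which also restrain HIF, gave no call. Hif1an, the asparaginyl hydroxylase that blocks HIF coactivator binding, read 499 and 396 without doxycycline and 441 and 520 with it at 1428576_at. The groups overlapped (log2 difference 0.11 ± 0.15 SE, 95% interval -0.22 to 0.44, adjusted p = 0.703). Its other probe sets were dim, with 1452845_at at 36.2 to 62.8 over the arrays (0.30 ± 0.48 SE, adjusted p = 0.739) and 1447817_at at 9.06 to 36.0 and not tested. Vhl, the substrate receptor that binds hydroxylated HIF, read 480 and 542 without doxycycline and 506 and 568 with it at 1434708_at. The groups overlapped there (0.073 ± 0.13 SE, 95% interval -0.20 to 0.35, adjusted p = 0.762). At 1421071_at the control arrays read 288 and 248 and the RNAi arrays 238 and 246. Both RNAi values were below the controls by a margin smaller than the gap between the controls (-0.14 ± 0.17 SE, adjusted p = 0.646).

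Among the target genes, Vegfa, the vascular endothelial growth factor, came closest to passing. Probe set 1420909_at read 566 and 600 without doxycycline and 463 and 458 with it. Both RNAi values were below both controls, at 78.9% of control (log2 difference -0.34 ± 0.12 SE, 95% interval -0.60 to -0.083). The unadjusted p was 0.0140 and the adjusted p 0.0783, and over the alternatives the adjusted p ran from 0.0581 to 0.306. The second probe set, 1451959_a_at, read 239 and 296 without doxycycline and 213 and 244 with it. These groups overlapped (-0.22 ± 0.18 SE, adjusted p = 0.479).

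Bnip3, a mitochondrial protein gene that promotes mitophagy, read 6384 and 6859 without doxycycline and 6801 and 7012 with it at 1422470_at. The groups overlapped, and the change of 0.062 ± 0.058 SE on the log2 scale did not pass (adjusted p = 0.541). The interval from -0.065 to 0.19 was the narrowest among the members that did not pass. Ankrd37, an ankyrin repeat gene widely used as a hypoxia marker, read 598 and 579 without doxycycline and 500 and 668 with it at 1436538_at. Here the RNAi arrays lay on either side of the controls, at -0.026 ± 0.14 SE on the log2 scale (95% interval -0.34 to 0.28, adjusted p = 0.929).

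**Figure D3:**
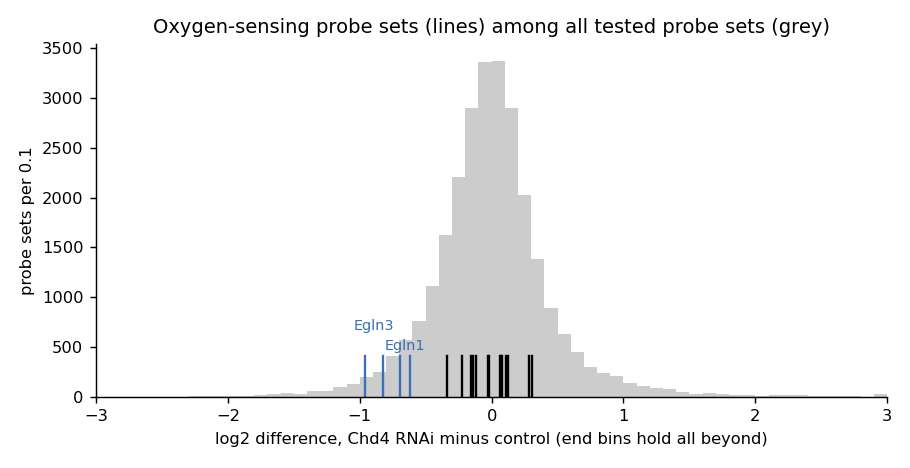
Number of tested probe sets (vertical) by log2 difference, Chd4 RNAi minus control, in bins of 0.1 (grey), with a line for each of the 18 tested members. The blue lines of Egln1 and Egln3 lie in the left tail and the black lines of the other members, between -0.34 and 0.30, lie in the body of the distribution.

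The patterns most like Egln1 1423785_at over the 4 arrays, by Euclidean distance of log2 signals centred on the control mean, were those of Zfp408, Ech1 and Galm, at distances of 0.031, 0.033 and 0.037. Ech1, an enzyme of fatty acid oxidation, read 2236 and 2178 without doxycycline and 1352 and 1384 with it (adjusted p = 0.000160). Galm, a mutarotase of sugar metabolism, had 733 and 712 against 445 and 447 (adjusted p = 0.00206), and the zinc finger gene Zfp408 had 168 and 163 against 101 and 103 (adjusted p = 0.0746). For Hif1a 1448183_a_at, the member with the smallest p among those above 0, the nearest were Slc20a1, Ap2b1 and Tagln2, at distances of 0.016, 0.022 and 0.024. Of these Tagln2, an actin-binding protein gene, passed (4543 and 4172 against 5536 and 5159, adjusted p = 0.0120), and Slc20a1 and Ap2b1 did not (adjusted p = 0.168 and 0.0513). With 4 arrays in 2 groups, many probe sets can share such a pattern.

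The partners and regulators of HIF changed in both directions. This list and those that follow were chosen with earlier results of these data known, so their shares beside those over all are descriptive only. Of 15 genes on the array with 33 tested probe sets, 3 probe sets were higher and 5 lower, or 24.2% against 14.2% over all, with a median log2 difference of -0.070. Cited2, which competes with HIF for Ep300 and is itself a HIF target, read 1459 and 1496 without doxycycline and 959 and 848 with it at 1452207_at (61.0% of control, log2 -0.71 ± 0.093 SE, adjusted p = 0.000546). Its second probe set was lower too (335 and 345 against 165 and 179, adjusted p = 0.00307). Crebbp, a coactivator that binds HIF, rose from 1175 and 1304 to 1754 and 1724 at 1435224_at (0.49 ± 0.084 SE, adjusted p = 0.00306), and its 3 other probe sets did not pass. Arnt2, a partner of HIF alpha related to Arnt, rose from 105 and 122 to 222 and 190 at 1434028_at (0.86 ± 0.23 SE, adjusted p = 0.0273). Its other tested probe set, 1420670_at, had overlapping groups and did not pass (0.28, adjusted p = 0.758).

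Eloc, the elongin C subunit that links Vhl to its ligase, fell from 457 and 453 to 224 and 231 at 1427915_s_at (log2 -0.999 ± 0.15 SE, adjusted p = 0.00114). The brightest Eloc probe set, 1427914_a_at, read 10881 and 11458 without doxycycline and 9166 and 10412 with it and did not pass (-0.19, adjusted p = 0.0681). A further probe set, 1452593_a_at, was lower (-0.55, adjusted p = 0.0465), but it did not pass once control replicate 1 (0.250), control replicate 2 (0.0698) or Chd4 RNAi replicate 2 (0.162) was left out. The suffix s marks probes that can match more than 1 gene. Ep300 and the deubiquitinase gene Usp33 were named after their values were seen. Ep300 was higher (0.29, adjusted p = 0.0456) and Usp33 lower (-0.30, adjusted p = 0.0469), and both calls ended with any 1 array left out (adjusted p = 0.0502 to 0.203 and 0.0724 to 0.262). Arnt2 no longer passed without control replicate 1 (0.76, adjusted p = 0.111) or Chd4 RNAi replicate 1 (0.74, adjusted p = 0.116). Without Chd4 RNAi replicate 1 the count higher was 1, and without control replicate 2 the count lower was 3.

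**Figure D4:**
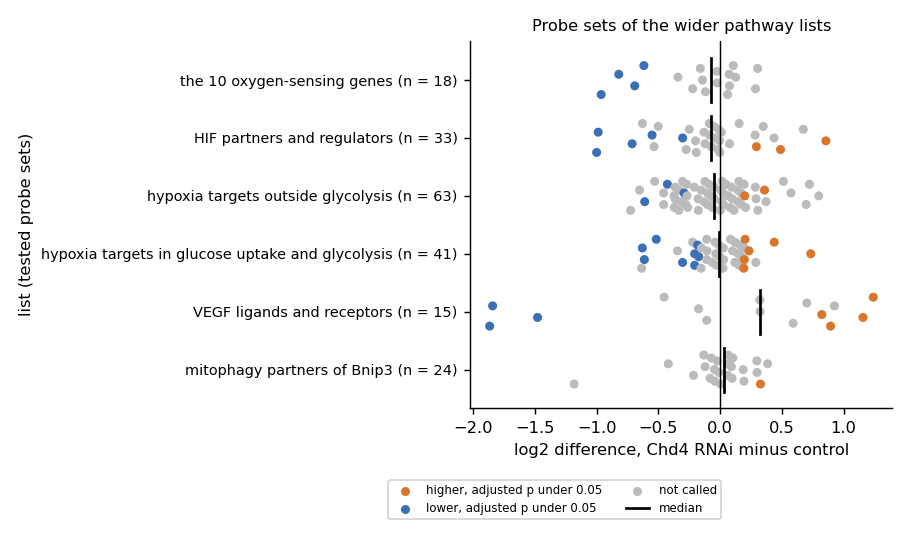
Log2 difference, Chd4 RNAi minus control, of each tested probe set in the oxygen-sensing genes and in 5 wider lists, with the median of each list as a black bar. Called probe sets, in orange (higher) and blue (lower), lie on both sides of 0 in 4 of the 5 wider lists, and the mitophagy list has 1 call.

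Hypoxia targets outside glycolysis changed in few cases. Among 31 tested genes with 63 tested probe sets, 2 were higher and 3 lower, 7.94% against 14.2% over all, with a median log2 difference of -0.048. Kdm3a, a histone demethylase induced by HIF, rose from 3279 and 3035 to 4110 and 3987 (log2 0.36 ± 0.066 SE, adjusted p = 0.00425). Higd1a, a mitochondrial protein gene, fell from 6411 and 6713 to 5374 and 5347 at its brightest probe set (-0.29 ± 0.056 SE, adjusted p = 0.00556), while its 2 dimmer ones did not pass. Ndrg1, a stress-responsive gene, was lower at 1 of 5 probe sets (444 and 543 against 295 and 351, adjusted p = 0.0223). The cytokine gene Mif rose from 17994 and 18264 to 21627 and 20054 (0.20 ± 0.049 SE, adjusted p = 0.0192). Bhlhe40, a transcriptional repressor gene named after its values were seen, was lower (-0.43, adjusted p = 0.0270).

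Several of these calls were lost with 1 array left out. Ndrg1 no longer passed without control replicate 2 (log2 -0.46, adjusted p = 0.165) or Chd4 RNAi replicate 1 (-0.48, adjusted p = 0.0777). Mif no longer passed without control replicate 1 (0.19, adjusted p = 0.0852), control replicate 2 (0.21, adjusted p = 0.0552) or Chd4 RNAi replicate 1 (0.15, adjusted p = 0.0902). Bhlhe40 no longer passed without control replicate 1 (adjusted p = 0.0574), control replicate 2 (0.125) or Chd4 RNAi replicate 2 (0.123). The count higher was 1 without either control array. The count lower was 1 without control replicate 2 and 5 without Chd4 RNAi replicate 2. Under quantile normalization the difference of Mif was 0.11 (adjusted p = 0.0812).

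Hypoxia targets of glucose uptake and glycolysis also split. Of 41 tested probe sets for 18 genes, 6 were higher and 8 lower, 34.1% against 14.2% over all, with a median log2 difference of -0.0082. These calls came from 4 genes higher and 4 genes lower. Many probe sets of this list are bright, and the share over all depends on brightness. With only the top 40% of probe sets by signal tested it was 21.6%, and the list then had 9 higher and 9 lower. How many probe sets of the list passed that filter was not counted, so its own share there is not given. The phosphofructokinase gene Pfkp rose from 2256 and 1999 to 3696 and 3378 at 1430634_a_at (0.73 ± 0.079 SE, adjusted p = 0.000159), with a second probe set higher (0.44, adjusted p = 0.000351) while the remaining one did not pass (-0.039). Ldha, which makes lactate dehydrogenase, rose from 20089 and 20940 to 23401 and 23817 (0.20 ± 0.044 SE, adjusted p = 0.0110). The glucose transporter gene Slc2a3 fell from 3918 and 3794 to 2647 and 2744 at 1421924_at (-0.52 ± 0.064 SE, adjusted p = 0.000383), and 2 of its 3 other probe sets were lower as well (-0.63, adjusted p = 0.00639, and -0.17, adjusted p = 0.0348). Its brightest probe set, with 17707 and 18669 against 18471 and 17696, did not pass (-0.0082). Hexokinase gene Hk2 fell from 6866 and 7268 to 5584 and 5867 (-0.30 ± 0.058 SE, adjusted p = 0.00545).

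With control replicate 1 left out Ldha no longer passed (0.17, adjusted p = 0.0881), nor did it under quantile normalization (0.094, adjusted p = 0.126). The -0.17 of Slc2a3 at 1455898_x_at did not pass without control replicate 1 (adjusted p = 0.149), control replicate 2 (0.116) or Chd4 RNAi replicate 1 (0.127), with the replicate number as a block (0.0606) or with no filter on dim probe sets (0.0895). In this list the count higher was 2 without control replicate 1, and the count lower was 5 without control replicate 1 and 4 without control replicate 2. Under quantile normalization the count higher was 3. The other genes with calls are named after their values were seen. The transporter gene Slc2a1 was lower at all 3 probe sets (-0.21, -0.21 and -0.18, adjusted p = 0.0185 to 0.0475) and the glycogen synthase gene Gys1 at 1 of 2 (-0.61, adjusted p = 0.0246). The aldolase gene Aldoa was higher at 2 of 5 (0.19 and 0.20) and Pdk1, a kinase that restrains pyruvate oxidation, at 1 of 4 (0.23, adjusted p = 0.0224). Pdk1 probe set 1435836_at was lower on both RNAi arrays without passing (-0.22, adjusted p = 0.0756). The brightest one of Pdk1, 1423747_a_at, barely differed (-0.0020). Each of the Slc2a1, Gys1, Aldoa and Pdk1 calls ended with at least 1 array left out. Gys1 no longer passed without control replicate 1 (adjusted p = 0.204), and Pdk1 without control replicate 1 (0.0693), control replicate 2 (0.0937) or Chd4 RNAi replicate 1 (0.109). Both Aldoa calls ended without control replicate 1 (0.226 and 0.238), 1416921_x_at also without Chd4 RNAi replicate 2 (0.126) and 1439375_x_at also without Chd4 RNAi replicate 1 (0.106). All 3 Slc2a1 calls ended without control replicate 2 (0.0771 at 1426599_a_at, 0.0850 at 1426600_at and 0.315 at 1434773_a_at). The first of them also ended without control replicate 1 (0.187) or Chd4 RNAi replicate 1 (0.242), the next without control replicate 1 (0.0832) and the last without Chd4 RNAi replicate 2 (0.103).

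VEGF ligands and receptors other than Vegfa held the largest differences among the tested probe sets of the wider lists. Of 15 tested probe sets for 7 genes, 4 were higher and 3 lower, 46.7% against 14.2% over all, with a median log2 difference of 0.32. These calls came from 2 genes higher and 1 gene lower, so the share repeats readings of the same genes. Vegfc, a growth factor of lymphatic vessels, fell at each of its 3 tested probe sets. At 1440739_at it went from 855 and 719 to 291 and 273 (35.9% of control, log2 -1.48 ± 0.13 SE, adjusted p = 5.44e-05), and its other probe sets had differences of -1.87 and -1.84 (adjusted p = 0.000176 and 7.3e-05). The Vegfc differences exceeded that of Vegfa at 1420909_at in size, and a test of that gap was not run. Vegfb, another ligand gene, read 778 and 761 without doxycycline and 1028 and 903 with it (0.32 ± 0.10 SE, adjusted p = 0.0569).

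Nrp2, a co-receptor gene for VEGF and semaphorins, rose from 301 and 301 to 736 and 689 at 1435349_at (log2 1.24 ± 0.12 SE, adjusted p = 9.53e-05). Of its 3 other tested probe sets 2 were higher as well. The call at 1426528_at ended without control replicate 2 (adjusted p = 0.0570) or Chd4 RNAi replicate 1 (0.0840), and that at 1456778_at without control replicate 2 (0.0612) or Chd4 RNAi replicate 2 (0.137). Flt4, the receptor gene for Vegfc, was higher at 1444052_at, with 90.1 and 100 against 173 and 164 (0.82 ± 0.24 SE, adjusted p = 0.0445). Its other tested probe set, the dimmer 1421442_at, had 39.4 and 28.5 against 47.8 and 84.6 and did not pass (0.93, adjusted p = 0.249). The Flt4 call ended with any 1 array left out (adjusted p = 0.0899 to 0.160), with no filter on dim probe sets (0.0927) and with the replicate number as a block (0.0622). The count higher was 1 without control replicate 2 and 2 without Chd4 RNAi replicate 1. Beside these, 3 of 10 endothelial markers were higher (Pecam1, Egfl7 and Tek), and the summed signal of the list went from 1273 and 1366 without RNAi to 2012 and 2217 with it. The defining endothelial genes Cdh5, Kdr, Emcn and Tie1 were below the filter on dim probe sets, and 5 of the 10 genes, these 4 among them, had mean signals under the array median in both groups. The part of other cells in the VEGF differences was not tested.

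Mitophagy partners of Bnip3 gave 1 call among 24 tested probe sets of 10 genes, 4.17% against 14.2% over all, with a median log2 difference of 0.032. Sqstm1, the autophagy adaptor gene, rose from 2218 and 2050 to 2737 and 2614 at 1450957_a_at (0.33 ± 0.073 SE, adjusted p = 0.0122). It no longer passed without control replicate 2 (0.27, adjusted p = 0.0864). Fundc1, a mitophagy receptor gene, read 592 and 558 without doxycycline and 698 and 716 with it (adjusted p = 0.0928). Gabarap, an autophagosome gene, had 2691 and 2644 against 2913 and 3168 (adjusted p = 0.0988). The survival gene Bcl2l1 had 83.0 and 117 against 48.4 and 39.0 at 1426191_a_at, with the RNAi mean under the array median (adjusted p = 0.0623). At its brightest probe set, 1420888_at, the groups overlapped (555 and 482 against 384 and 516, log2 difference -0.22, adjusted p = 0.413). They overlapped at 1420887_a_at as well (-0.044, adjusted p = 0.956).

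**Figure D5:**
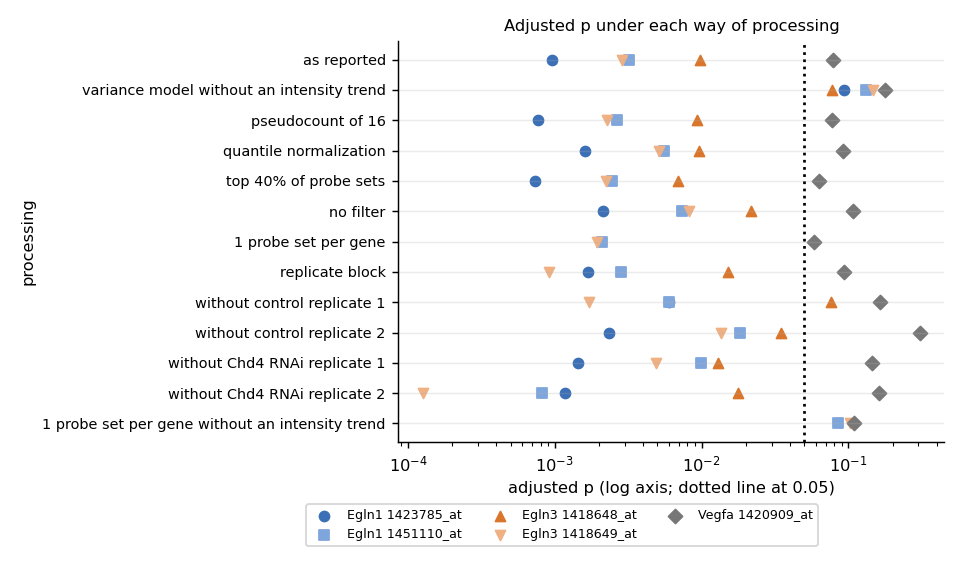
Adjusted p (horizontal, log axis) of the Egln1, Egln3 and first Vegfa probe sets under each way of processing (vertical), with the threshold of 0.05 as a dotted line. The Egln1 and Egln3 points lie left of the line except without the intensity trend and, for Egln3 1418648_at, without control replicate 1; the Vegfa points lie right of it throughout.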

How the data were processed

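The authors deposited array intensity on a linear scale, 1 MAS5 signal for each of 45101 probe sets on each of 4 arrays, per the submitters' processing notes. The MAS5 version and scaling target are not given in the sources used here. RNA was labelled as biotin cRNA, per the labels' protocols. Groups came from the sample titles. The 64 control probe sets were left out. Log2 signals, without a pseudocount, were fitted with the lmFit function of limma 3.58.1 (R 4.3.3), and eBayes moderated the variances along an intensity trend, which left 2 residual and added 9.24 prior degrees of freedom. The 60% of probe sets with the highest mean log2 signal were tested (signal 42.4 or more), two-sided, with Benjamini-Hochberg adjustment over all 27022 and a threshold of 0.05. Errors are standard errors of that fit and intervals cover 95%. With 2 arrays per group, the number of arrays limits precision. The genes and lists were chosen with earlier results of these data known. All 10 genes are named, with up to 4 genes per list by smallest adjusted p and the 3 nearest patterns. Alternatives changed the variance model, pseudocount, normalization, filter, unit of the test, pairing and arrays used. The fit with 1 probe set per gene and no intensity trend was added after the data were seen.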

Additional observations from a re-analysis of the deposited data

How the results depend on the processing

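Of 198 refits of the tested members, 181 kept direction and side of the threshold, 7 lost a call, 0 gained one and 10 changed sign. Each change of sign was in a probe set that was not called. With each array left out in turn, the log2 difference of Egln2 ran from -0.24 to 0.0067, Epas1 1435436_at from -0.061 to 0.015, Epas1 1449888_at from -0.16 to 0.31, Hif1an 1428576_at from -0.059 to 0.27, Hif1an 1452845_at from -0.015 to 0.62, Vhl 1434708_at from -0.015 to 0.16 and Ankrd37 from -0.23 to 0.18.

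Without the intensity trend every count of calls, over all probe sets, members and lists, was 0. With 1 probe set per gene as well, chosen after seeing the data, 293 genes were higher and 128 lower, with 0 member calls, 2 higher and 1 lower VEGF genes and 0 in the other lists. With the trend and 1 probe set per gene, 2 of 10 member genes, 2 HIF partners, 4 glycolysis genes and 1 VEGF gene were lower and 3 glycolysis genes higher. Over all, 20.5% of the 12615 genes were called in that fit, 1480 higher and 1112 lower. With no filter there were 1 higher and 3 lower HIF partners, 1 higher target outside glycolysis, 5 lower glycolysis probe sets and 2 higher VEGF probe sets. The share called over all 45037 probe sets was then 6.29%, against 14.2% with the filter. Under quantile normalization 1 target outside glycolysis and 3 glycolysis probe sets were higher.

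With 1 array left out, member calls were 3 to 4 lower and 0 higher, and over all probe sets 997 to 1793 were lower (1104 without control replicate 1, 997 without control replicate 2) and 1433 to 1742 higher. The ranges were 1 to 3 higher and 3 to 5 lower for HIF partners, 1 to 2 and 1 to 5 for targets outside glycolysis, 2 to 7 and 4 to 9 for glycolysis, 1 to 3 and 3 for VEGF genes, and 0 to 1 higher for mitophagy partners. The cause of these shifts was not tested. A lone array in a group is assumed to vary like the other group.

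Replicate numbers are shared by the groups but pair nothing in the labels. Deviations of same-numbered arrays from their group means correlated at -0.0019. With the replicate block 3635 probe sets were called against 3847, and the 4 member calls remained.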
